A study of Mus musculus with 18 samples.

Results

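The transcripts described here encode the nuclear subunits of oxidative phosphorylation in mouse spleen. They were chosen by name, as the genes whose symbols begin with Nduf followed by a, b, c, s or v and a digit (complex I), are Sdha to Sdhd (complex II), begin with Uqcr (complex III), begin with Cox4 to Cox8 and a letter (complex IV) or begin with Atp5 (complex V), and whose mean level over 18 libraries was at least 1 RPKM (reads per kilobase of transcript, scaled to the mapped reads of a library). Of 19320 genes, 87 had such a name and 81 reached that level. Complex I held 38 of them, complex II 4, complex III 8, complex IV 14 and complex V 17.

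The libraries came from spleens of ICR mice at 10 weeks of age, with 3 libraries in each of 6 groups. Con mice were controls. A10 mice received alginate oligosaccharide (AOS, short chains cut from a brown algal polysaccharide) at 10 mg/kg. STZ mice received streptozotocin, a drug toxic to insulin-secreting beta cells that is used to model type 1 diabetes. STZ-A10 mice received STZ together with AOS at 10 mg/kg. A10-FMT and Con-FMT mice were given STZ and then a microbiota transplant by mouth (FMT, for fecal microbiota transplantation), made of pooled small intestine content from donors on AOS at 10 mg/kg or from control donors. The study's methods describe male mice, a single injection of STZ and the Con, STZ, A10-FMT and Con-FMT groups, so A10 and STZ-A10 are known here from the labels alone. The labels do not say whether the libraries of a group came from separate animals, and p-values measure the spread between these libraries only.

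The respiratory chain sits in the inner mitochondrial membrane. Complexes I and II pass electrons from NADH and succinate to coenzyme Q, complex III hands them to cytochrome c, and complex IV reduces oxygen. Complexes I, III and IV pump protons out of the matrix, and complex V, the ATP synthase, lets them return and makes ATP. Most subunits are encoded in the nucleus, and some have isoforms that are used in muscle, lung or testis. The subunits encoded by mitochondrial DNA were not analysed here. The spleen mixes B and T cells, macrophages and, in mice, red cell precursors, which still hold mitochondria.

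The ATP synthase gives a case in which the transcript can vary while the protein does not. Its c subunit forms the membrane ring that turns as protons pass, and it is encoded by Atp5g1 (GRCm38 chr11:96068852-96075670, minus strand), Atp5g2 (chr15:102662864-102672352, minus strand) and Atp5g3 (chr2:73908447-73911326, minus strand). The last 75 codons of the coding sequence of each, 225 bases from the GENCODE M21 transcripts, are shown because they are what lets reads tell the genes apart. Capitals mark the 57 positions at which the 3 genes do not all share a base.
Atp5g1: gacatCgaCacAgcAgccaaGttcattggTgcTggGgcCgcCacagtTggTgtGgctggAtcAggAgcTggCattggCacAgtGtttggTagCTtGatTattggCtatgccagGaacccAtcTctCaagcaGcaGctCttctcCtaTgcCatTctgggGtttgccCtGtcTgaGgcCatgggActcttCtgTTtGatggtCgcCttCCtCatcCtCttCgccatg
Atp5g2: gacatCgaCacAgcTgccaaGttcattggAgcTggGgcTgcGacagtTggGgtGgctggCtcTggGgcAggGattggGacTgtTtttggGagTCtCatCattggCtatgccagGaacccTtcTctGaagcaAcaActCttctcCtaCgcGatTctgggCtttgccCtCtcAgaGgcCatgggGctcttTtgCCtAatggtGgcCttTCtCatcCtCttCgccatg
Atp5g3: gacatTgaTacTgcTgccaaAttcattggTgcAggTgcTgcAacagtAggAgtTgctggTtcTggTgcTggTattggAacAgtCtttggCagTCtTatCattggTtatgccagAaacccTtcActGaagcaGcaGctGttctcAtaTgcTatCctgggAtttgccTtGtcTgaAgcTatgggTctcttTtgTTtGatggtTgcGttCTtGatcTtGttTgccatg
All 75 codons encoded the same amino acid in the 3 genes. Atp5g2 differed from Atp5g1 at 34 bases and Atp5g3 at 45, and none of these differences changed an amino acid. Over the whole coding sequence, which also holds the import presequence that is cut off, 68.8% of aligned bases were identical between Atp5g1 and Atp5g2, 66.6% between Atp5g1 and Atp5g3 and 67.9% between Atp5g2 and Atp5g3.

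A second set of sequences sets isoforms beside each other at the level of the promoter. The 250 bases before the RefSeq start (GRCm38.p6) are shown for Cox6a1 and Cox6b1, the widely used forms of complex IV subunits 6A and 6B, and for Cox6b2, the form named for testis. Capitals mark matches on either strand to the NRF1 motif (GCGCA, any base, GCGC), the ETS motif CCGGAAG and the CCAAT box CCAAT, of which the first is bound by nuclear respiratory factor 1 and the second by GABP, both known activators of respiratory genes.
Cox6a1 (chr5:115348959-115349208, minus strand): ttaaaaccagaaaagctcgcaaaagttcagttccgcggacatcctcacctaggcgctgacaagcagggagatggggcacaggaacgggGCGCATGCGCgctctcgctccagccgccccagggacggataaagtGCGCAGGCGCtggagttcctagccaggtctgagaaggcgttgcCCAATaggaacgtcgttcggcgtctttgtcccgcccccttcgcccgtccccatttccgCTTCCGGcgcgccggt
Cox6b1 (chr7:30626115-30626364, minus strand): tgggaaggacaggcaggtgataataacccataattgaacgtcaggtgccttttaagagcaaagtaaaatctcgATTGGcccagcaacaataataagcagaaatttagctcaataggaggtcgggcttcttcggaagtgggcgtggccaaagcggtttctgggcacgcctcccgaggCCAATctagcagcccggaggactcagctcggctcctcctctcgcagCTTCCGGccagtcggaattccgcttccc
Cox6b2 (chr7:4753095-4753344, minus strand): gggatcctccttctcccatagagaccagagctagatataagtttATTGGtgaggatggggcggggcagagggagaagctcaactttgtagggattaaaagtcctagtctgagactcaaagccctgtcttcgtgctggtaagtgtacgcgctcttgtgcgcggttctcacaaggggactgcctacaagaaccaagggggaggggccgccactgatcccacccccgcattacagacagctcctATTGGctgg
The Cox6a1 window held 2 NRF1 motifs, 1 ETS motif and 1 CCAAT box. The Cox6b1 window held 1 ETS motif and 2 CCAAT boxes, and the Cox6b2 window 2 CCAAT boxes and neither of the other motifs. Its 250 bases held 8 CpG dinucleotides, against 26 for Cox6a1 and 14 for Cox6b1. RefSeq windows of 300 bases (250 before and 50 after a start) were at hand for 65 of the 81 genes, in 70 windows, and each motif was sought in both strands of all windows. The NRF1 motif was in 25.7% of the 70 windows, against 4.60% of all 32851 windows and 9.42% of the 13042 windows of tested genes. For the ETS motif the shares were 22.9%, 8.86% and 16.7%, and for the YY1 motif AAGATGG 15.7%, 6.34% and 6.86%. The CCAAT box, which these windows hold often, was in 41.4%, 37.4% and 37.8%, and the TATA box TATAAA in 8.57%, 13.6% and 7.86%. No motif holds the letters of another. A match describes the letters of a window and is not a bound site.

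The subunit transcripts were abundant. Their means over 18 libraries ran from 1.05 to 524 RPKM with a median of 101, 42 of 81 reached 100 RPKM, and 77 of 81 lay above the median of all 12905 tested genes (11.7 RPKM). They gave 49 of the 1000 most abundant genes and, in a library, made up 1.36% to 1.95% of all RPKM. The median of the means was 207 RPKM for complex V, 189 for complex IV, 131 for complex III, 72.7 for complex I and 60.6 for complex II. This order held in 17 of 18 libraries. In Con-FMT replicate 1 complex IV stood above complex V. RPKM is scaled to transcript length, but whether that makes levels of such short transcripts fully comparable between genes was not tested. The longest coding transcript had a median of 870 bases over 80 subunits (371 to 4715), against 3040 for tested genes.

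**Figure D1:**
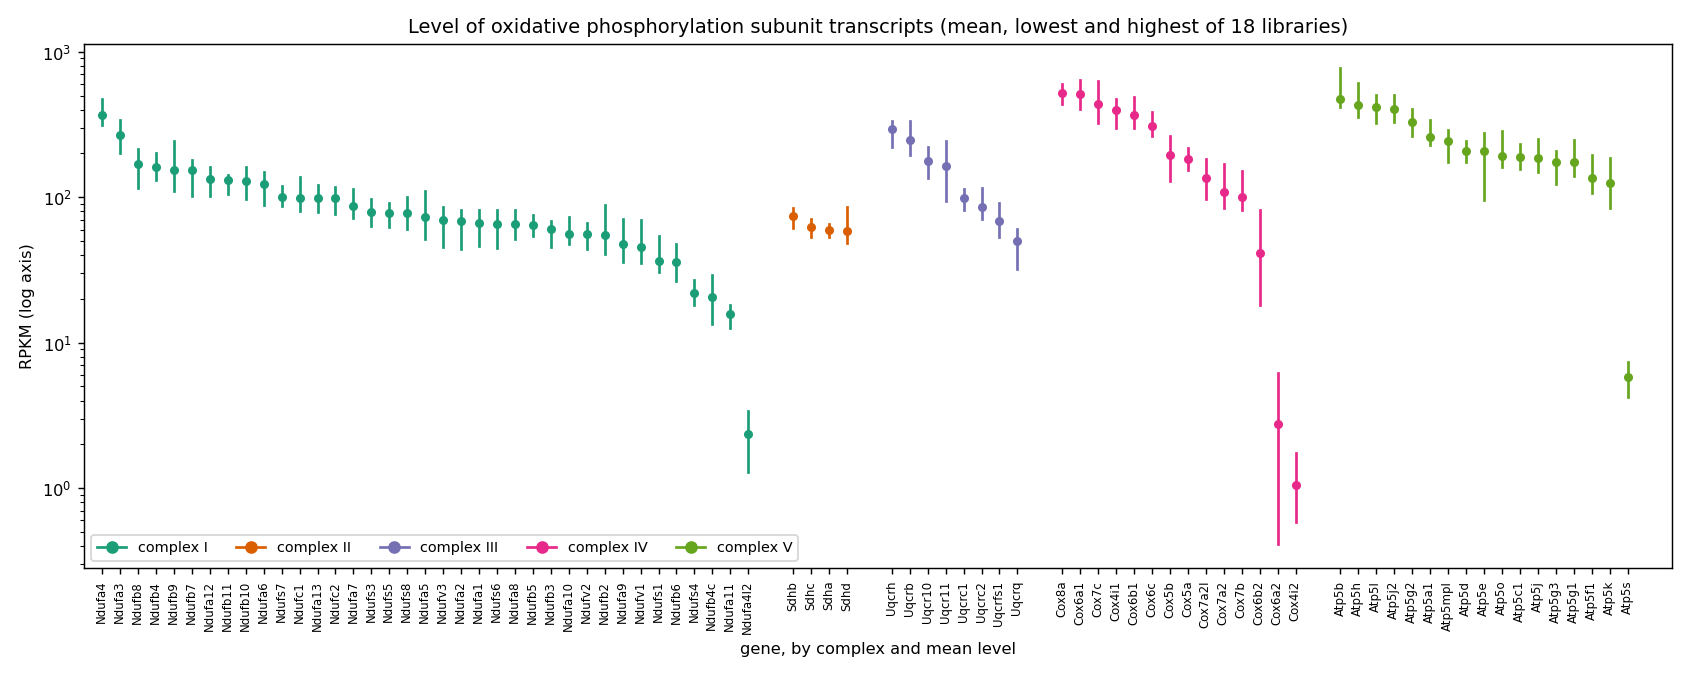
RPKM (log axis) of 80 of the 81 subunit transcripts, ordered by complex and by mean level. Points are means over 18 libraries and lines run from the lowest to the highest library. Most transcripts lie between 30 and 500 RPKM with short lines, and Cox6a2, Cox6b2, Cox4i2, Ndufa4l2 and Atp5s stand below the rest of their complex.

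Levels within a complex were unequal except in complex II. In complex I, Ndufa4 stood highest at 370 RPKM and Ndufa4l2 lowest at 2.35, a 157-fold range. NDUFA4 carries a complex I name but is now counted to complex IV, and NDUFA4L2 is its relative induced by low oxygen. In complex II the range was 1.28-fold, from Sdhd (58.3 RPKM), a membrane anchor, to Sdhb (74.6 RPKM), the iron-sulfur subunit. In complex III, Uqcrh, the hinge protein beside cytochrome c1, reached 295 RPKM and Uqcrq 50.3. In complex IV, Cox8a reached 524 RPKM and Cox4i2, the lung form of subunit 4, 1.05. In complex V, Atp5b, the catalytic beta subunit, reached 477 RPKM and Atp5s, a coupling factor that is not a subunit of the enzyme itself, 5.83.

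The core subunits show how the stoichiometry of the enzymes and the levels of their mRNAs compare. The alpha and beta subunits stand in equal number in the ATP synthase, while Atp5a1 had a mean of 259 RPKM and Atp5b 477. Of the complex I core, Ndufs3 (79.4 RPKM) exceeded Ndufv1 (45.4), which binds NADH, and Ndufs1 (36.5), which carries iron-sulfur clusters. Sdha, the flavoprotein of complex II, stood at 59.3 RPKM, beside Sdhb at 74.6. Uqcrc1, a core protein of complex III, reached 98.9 RPKM and Uqcrfs1, the Rieske iron-sulfur protein, 68.8. Cox4i1 (401 RPKM) and Cox5a (184), early partners of the catalytic core of complex IV, likewise differed. Between groups these core transcripts moved little. The highest group mean was 1.05 times the lowest for Sdha, 1.14 for Atp5a1 and Uqcrc1, 1.15 for Cox4i1 and 1.17 for Cox5a. It was 1.20 for Sdhb, 1.21 for Uqcrfs1, 1.25 for Ndufv1, 1.26 for Ndufs3, 1.27 for Ndufs1 and 1.32 for Atp5b, whose A10-FMT libraries ran from 449 to 777 RPKM.

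The threshold of the rule lay among isoforms of restricted tissues. Just inside it were Cox4i2 (1.05 RPKM), Ndufa4l2 (2.35) and Cox6a2 (2.74), and just outside it Cox7a1 (0.979), Cox8b (0.761) and Ndufb4b (0.575), then Cox8c (0.268), Cox7b2 (0.193) and Ndufa11b (0.0239). Cox7a1, Cox8b and Cox6a2 are known from heart and skeletal muscle, and Cox8c and Cox7b2 from testis. The list of brown adipose markers used below also holds Cox7a1 and Cox8b.

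Over all libraries most subunit transcripts varied little. The coefficient of variation over 18 libraries had a median of 12.3% and was under 20% for 75 of 81. It was 6.45% for Sdha and highest for Cox6a2 (66.2%) and Cox6b2 (38.7%). The highest and the lowest group mean differed by a median of 1.25-fold, and by under 1.5-fold for 75 of 81. Within groups the SD of log2(RPKM + 1) had a median of 0.155, against 0.183 for 2124 other genes of like level (between the 10th and the 90th percentile of the subunits' means) and 0.204 for all tested genes. Complex II was the most even, with a median within-group SD of 0.114.

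Most of the extremes lay in 2 libraries. A10-FMT replicate 3 held the highest value of 46 of 81 subunits and Con replicate 3 the lowest value of 42. The median log2(RPKM + 1) of the subunits was 6.90 in the former and 6.43 in the latter, and 6.54 to 6.85 in the other 16. A10-FMT replicate 3 stood apart in other ways too. Globins took 42.7% of its summed RPKM, against 10.4% to 39.5% in the others. The proliferation gene Mki67 stood at 341 RPKM there and at 73.6 to 205 elsewhere. The B cell gene Cd79a stood at 190 RPKM, against 508 to 971 elsewhere. The median log2 level of all tested genes was 3.32, the lowest of any library (3.52 to 3.77 in the others). The 14 spleen markers had means of 4.79 to 1037 RPKM, and genes of the exocrine pancreas, which lies against the spleen, were read in every library, with a sum of 27.4 to 26637 RPKM. Spleen was sampled as bulk tissue, so more or fewer cells of a type and more or less RNA per cell cannot be told apart.

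**Figure D2:**
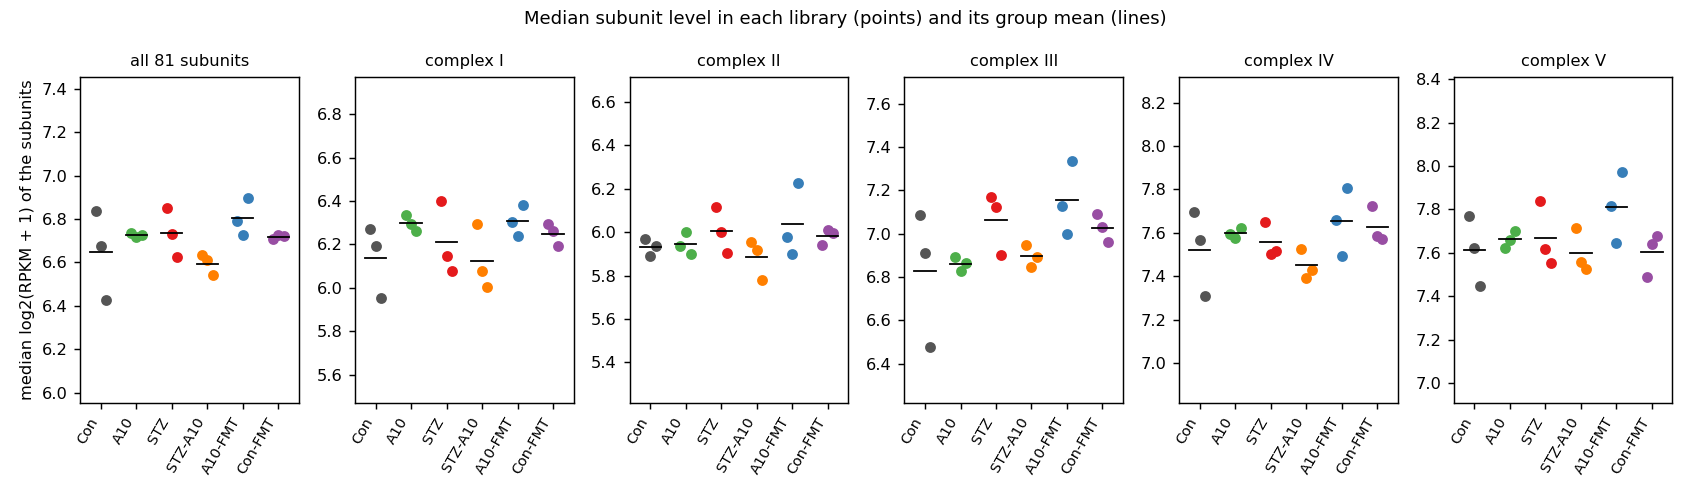
Median log2(RPKM + 1) of the subunits in each library (points), for all 81 and for each complex, with lines at the mean of the 3 libraries of a group. Each panel spans 1.5 log2 units. Con replicate 3 is low in most panels and A10-FMT replicate 3 high, and STZ-A10 has a low mean in most panels.

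Differences among the 6 groups were first sought with limma's moderated F test on log2(RPKM + 1), adjusted over all 12905 genes. It called 1 of 81 subunits, Cox6a2 (F = 10.2, adjusted p = 0.0478), where it called 0.449% of all tested genes. At an unadjusted p under 0.05 it held 16 of 81, or 19.8%, against 22.6% of all tested genes. After Cox6a2 the smallest p-values belonged to Ndufb2 (F = 4.33), Atp5o (3.98), Ndufb9 (3.88) and Ndufs8 (3.67), none of which passed after adjustment (limma adjusted p = 0.177 for Ndufs8). The call of Cox6a2 lay close to the threshold. It was lost, with limma adjusted p up to 0.121, without any single library of A10 or Con-FMT, without Con replicate 2 or 3, without STZ replicate 1 or 2, without A10-FMT replicate 1 and without STZ-A10 replicate 1. It was also lost with the replicate number as a block (limma adjusted p = 0.0810), with no filter on low values (limma adjusted p = 0.0754) and with a pseudocount of 0.1 in place of 1 (limma adjusted p = 0.0831).

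Cox6a2 is the form of subunit 6A that heart and skeletal muscle use in place of Cox6a1, and it lies on chromosome 7 (GRCm38 chr7:128205435-128206387, minus strand). Its coding sequence was identical to that of Cox6a1 at 56.3% of aligned bases, and the longest run they shared was 12 bases. It stood at 4.33, 4.54 and 5.28 RPKM in Con and at 3.73, 6.01 and 6.21 in A10. It stood at 1.91, 0.92 and 1.84 RPKM in STZ and at 1.63, 0.41 and 2.38 in STZ-A10. It stood at 1.42, 1.98 and 0.61 RPKM in A10-FMT and at 2.49, 1.75 and 1.92 in Con-FMT. The 6 libraries without STZ thus lay above the 12 with it, with no overlap. The log2 fold change was -1.18 ± 0.29 (SE, n = 3 per group, limma adjusted p = 0.0860) for STZ against Con and -1.42 ± 0.29 (limma adjusted p = 0.0744) for STZ-A10 against A10, neither past the threshold. Both passed it without A10-FMT replicate 3. Each of the other groups given STZ differed from STZ by less than the standard error. The log2 fold changes were -0.11 ± 0.29 for STZ-A10, -0.15 ± 0.29 for A10-FMT and 0.27 ± 0.29 for Con-FMT against STZ. Cox6a2 made up 1.01% ± 0.26 (SD, n = 3) of the summed Cox6a1 and Cox6a2 RPKM in Con and 0.302% ± 0.117 in STZ. Values near 1 RPKM rest on few reads.

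Markers of several cell types moved beside Cox6a2. Liver markers had log2 fold changes below 0 for 15 of 15 in STZ against Con and in STZ-A10 against A10 (medians -2.24 and -0.99). Platelet markers were below 0 for 12 of 12 in these pairs (-1.46 and -0.37). Exocrine pancreas markers (15 of 15) and red pulp macrophage markers (12 of 12) were above 0 in the same pairs. Of white adipose markers, 9 of 9 tested were below 0 in STZ against Con (median log2 fold change -1.65, 7 at an unadjusted limma p under 0.05) and 9 of 9 in STZ-A10 against A10 (-1.46, 8 at p under 0.05). Their summed level was 41.2 to 187 RPKM in Con and 109 to 295 in A10, against 17.9 to 40.6 in STZ and 39.2 to 97.9 in STZ-A10. In the FMT groups, where Cox6a2 was low, it was 49.2 to 112 (A10-FMT) and 30.8 to 153 (Con-FMT). T cell markers were below 0 for 9 of 9 in both STZ pairs, with medians of -0.35 and -0.65. Their sum was 191 to 334 RPKM in Con, overlapping with 172 to 260 in STZ, and 359 to 397 in A10, wholly above the 193 to 300 of STZ-A10. The Con-FMT libraries held 293 to 326 RPKM of them and the A10-FMT libraries 71.3 to 274.

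Some striated muscle genes were low, with Acta1 at 0.05 to 0.82 RPKM, Ckm at 0.10 to 0.68 and Myh4 at 0 to 0.01, and others were not. The summed level of 13 muscle genes, most of it Mylpf (mean 10.9), ran from 12.8 to 20.6 RPKM in Con and 13.4 to 19.2 in STZ. It was at least 15.1 RPKM in each A10 library and 9.78 to 15.4 in STZ-A10. The A10-FMT libraries had 18.3 to 22.6 RPKM and the Con-FMT libraries 14.9 to 17.4. Of the 4 muscle genes tested, 3 were below 0 in STZ against Con (median -0.25) and 4 in STZ-A10 against A10 (-0.46). Tnni2, a troponin of fast muscle, was called by the F test (limma adjusted p = 0.0468), with a mean of 2.92 RPKM in Con, 3.88 in A10 and 2.18 in STZ. Its means in STZ-A10, A10-FMT and Con-FMT are not given here.

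A list of 8 genes of plasmacytoid dendritic cells, chosen after the values were seen, moved with Cox6a2 in some pairs and not in others. Of the 8, 6 had a log2 fold change below 0 in STZ against Con (median -0.28), 8 in STZ-A10 against A10 (-0.62) and 0 in Con-FMT against STZ (0.20). Their summed level ran from 240 to 291 RPKM in Con and overlapped with STZ (198 to 290). It was 323 to 727 in A10 against 210 to 323 in STZ-A10. The A10-FMT libraries held 145 to 277 RPKM and the Con-FMT libraries 281 to 340. The genes differed among themselves. Mean levels in Con-FMT and Con were 5.82 and 9.31 RPKM for Siglech, 2.03 and 3.03 for Ccr9 and 1.84 and 2.27 for Runx2. They were 115 and 123 RPKM for Spib, 19.5 and 19.5 for Tcf4 and 3.61 and 3.52 for Pacsin1. For Irf7 they were 62.3 and 39.1 RPKM and for Bst2 94.2 and 73.5. Siglech and Runx2 lay wholly below Con in STZ, as 7.07% of tested genes did. In STZ against Con the log2 fold changes of the 8 ran from -0.93 ± 0.34 for Siglech, a surface lectin of these cells (limma adjusted p = 0.274), to 0.59 ± 0.47 for Irf7, a transcription factor of the interferon response (limma adjusted p = 0.731), with Tcf4 at -0.01 and Bst2 at 0.02. None of the 8 was at 0. The part of any of these cell types in the Cox6a2 difference was not tested.

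Cox6b2, with a mean of 41.4 RPKM, stood highest of the restricted isoforms of complex IV. It gave 9.94% ± 2.74 (SD over 18 libraries) of the summed Cox6b1 and Cox6b2 RPKM, with 18.2 to 81.7 RPKM against 298 to 486 for Cox6b1. The coding sequences of the pair were 61.9% identical, with a longest shared run of 14 bases. Its values were 51.6, 34.4 and 18.2 RPKM in Con, 23.8, 35.8 and 19.3 in A10, 58.4, 58.4 and 39.8 in STZ, 28.9, 52.5 and 43.1 in STZ-A10, 54.5, 32.2 and 81.7 in A10-FMT and 34.2, 43.0 and 35.3 in Con-FMT. The groups overlapped in every comparison. The log2 fold change was 0.67 ± 0.36 for STZ against Con (limma adjusted p = 0.549) and 0.64 ± 0.36 for STZ-A10 against A10 (limma adjusted p = 0.597). Cox6b2 is known for sperm. The sum of 14 testis germ cell genes was 354 RPKM in Con replicate 2, where Cox6b2 was 34.4 RPKM, and 29.4 to 71.8 elsewhere. The sum of the red cell precursor markers was 6636 RPKM in A10-FMT replicate 3, where Cox6b2 was 81.7 RPKM, and 1408 to 4107 elsewhere. Each of these is the value of 1 library, and the part of these cells in the level of Cox6b2 was not tested.

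**Figure D3:**
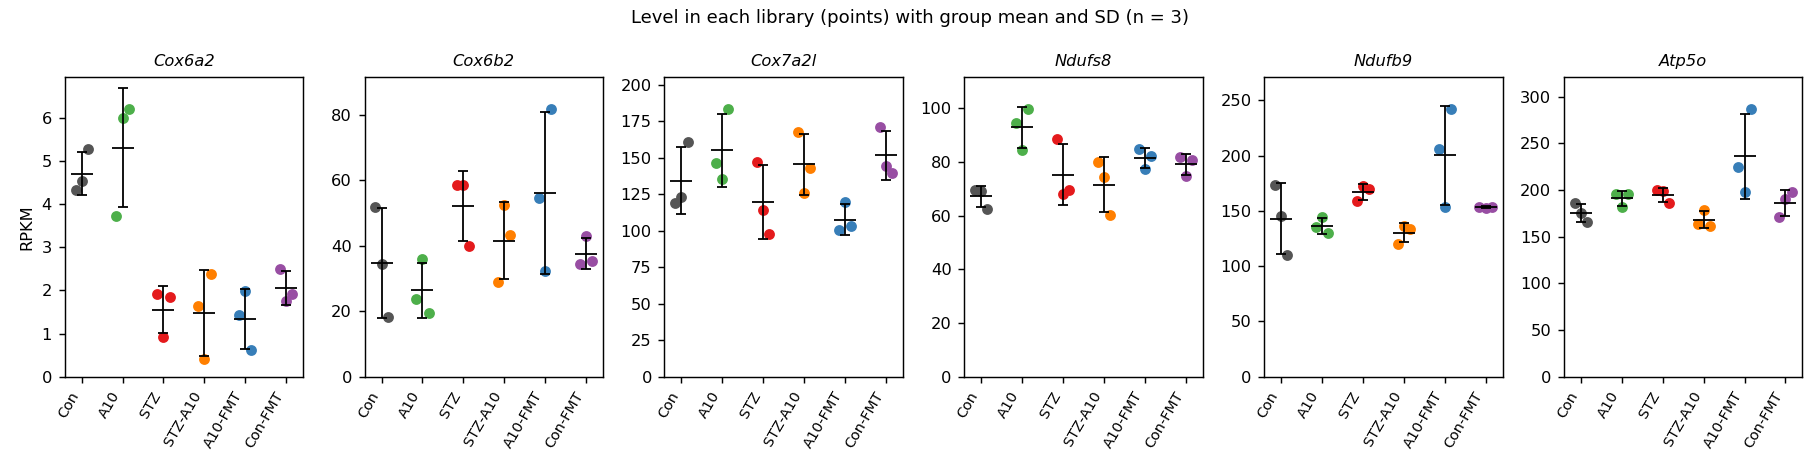
RPKM of Cox6a2, Cox6b2, Cox7a2l, Ndufs8, Ndufb9 and Atp5o in each library (points), with the group mean and SD (n = 3), on axes that start at 0. Cox6a2 is higher in the 6 libraries without STZ, and Ndufb9 and Atp5o are widest in A10-FMT.

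The comparisons between pairs of groups called no subunit. With limma and an adjusted p under 0.05, 0 of 81 passed in each of the 7 pairs and in the interaction of STZ and AOS. The shares of all tested genes called were low as well: 0.163% for STZ against Con, 0.0542% for STZ-A10 against A10, 0.00775% for A10 against Con, STZ-A10 against STZ, A10-FMT against STZ and Con-FMT against STZ, and 0 for A10-FMT against Con-FMT and the interaction. The standard error of a subunit's log2 fold change had a median of 0.13. Small changes could therefore pass unseen, and a missed threshold does not show that levels were equal.

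**Figure D4:**
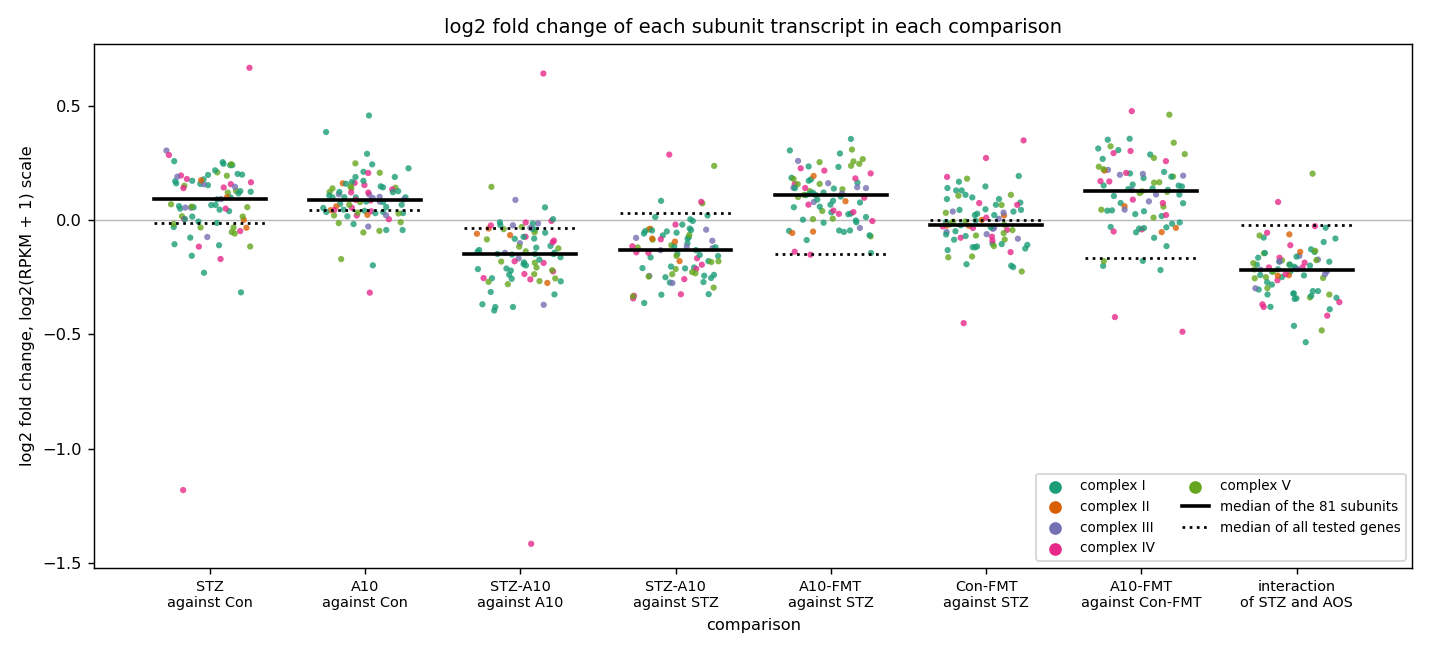
log2 fold change of each of the 81 subunits (points, coloured by complex) in the 7 pairs of groups and the interaction, with the median of the subunits (solid) and of all tested genes (dotted). The subunits lie mostly above 0 in A10 against Con and in the A10-FMT comparisons, and mostly below 0 in both STZ-A10 comparisons and the interaction.

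STZ against Con asks what the drug did to the spleen. The median log2 fold change of the 81 was 0.09, against -0.01 for all tested genes, and 60 of 81 were above 0 (47.6% of all genes were). By complex the medians were 0.10, 0.05, 0.12, 0.14 and 0.06 from I to V. At an unadjusted p under 0.05, 1 was higher and 2 were lower, against 4.63% and 6.44% of tested genes. The 3 libraries of STZ lay above those of Con for 5 subunits (5.77% of tested genes) and below for 1 (7.07%). Ndufs3, of the complex I core, stood at 74.6, 73.1 and 63.7 RPKM in Con and 93.5, 85.3 and 75.3 in STZ (log2 fold change 0.26 ± 0.10, limma adjusted p = 0.318). Cox7b and Atp5o, subunits of complex IV and of the ATP synthase stalk, had 0.18 and 0.15. Without Con replicate 3 the median of the 81 was -0.01. Markers of many cell types stood beside these values. All 12 platelet markers were below 0 (median log2 fold change -1.46, each at an unadjusted limma p under 0.05), as were 14 of 14 neutrophil markers (-2.08), whose sum was 16790 RPKM in Con replicate 1 and 872 in Con replicate 3, and 15 of 15 liver markers (-2.24). Above 0 were 15 of 15 markers of the exocrine pancreas (3.10) and 12 of 12 of red pulp macrophages (0.43). The part of these cells in the subunits' values was not tested.

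AOS alone gave a like median, with the Con libraries shared between both comparisons. In A10 against Con it was 0.09, against 0.05 for all tested genes, with 70 of 81 above 0 (62.5% of all genes were). Before adjustment 2 were higher and 0 lower at p under 0.05, against 3.56% and 1.68% of tested genes. 12 lay wholly above Con (11.7% of tested genes) and 0 wholly below (4.81%). Ndufs8, which passes electrons through iron-sulfur clusters in complex I, stood at 69.6, 69.3 and 62.7 RPKM in Con and 94.5, 84.5 and 99.7 in A10. The groups did not overlap, with a log2 fold change of 0.46 ± 0.12 (limma adjusted p = 0.362). Ndufv3, a complex I subunit of the NADH arm, had 65.6, 68.5 and 45.5 RPKM in Con and 81.7, 75.7 and 75.01 in A10 (0.39 ± 0.17, limma adjusted p = 0.883), and Atp5g2 had 332, 332 and 287 against 375, 352 and 404 (0.25). Without Con replicate 3 the median of the 81 was -0.03, so its sign rests on that library. All 14 neutrophil markers were below 0 in A10 against Con (median -2.02), as were 14 of 14 red cell precursor markers (-0.61) and 14 of 15 liver markers (-1.23), and their part was not tested.

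STZ-A10 against A10, the effect of STZ in mice given AOS, gave medians below 0 in every complex. The median log2 fold change was -0.15, against -0.03 for all tested genes, and 76 of 81 were below 0 (42.5% of all genes were above). By complex the medians were -0.15, -0.06, -0.07, -0.14 and -0.18 from I to V. With no adjustment, 13 of 81 (16.0%) were lower and 0 higher at p under 0.05, against 6.42% and 3.79% of tested genes. STZ-A10 lay wholly below A10 for 30 of 81, or 37.0%, against 14.9% of tested genes, and wholly above for 0 (7.69%). The count of 13 ran from 5 without A10 replicate 3 to 21 without A10-FMT replicate 3. The share of all tested genes in those repeats is not given, so this range does not set the subunits apart. The median ran from -0.19 to -0.09 over the single libraries left out. Exocrine pancreas markers summed to 55.1, 920 and 551 RPKM in A10 and to 7290, 7697 and 11316 in STZ-A10. Liver markers were below 0 for 15 of 15 (median -0.99) and red pulp macrophage markers above 0 for 12 of 12 (0.34), and the part of these tissues was not tested.

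After Cox6a2, the largest decreases without overlap in that pair were those of Ndufa3 and Ndufs5. Ndufa3, an accessory subunit of the membrane arm of complex I, stood at 295, 296 and 324 RPKM in A10 and 263, 203 and 232 in STZ-A10 (-0.39 ± 0.14, limma adjusted p = 0.324). Ndufs5, another accessory subunit, stood at 80.3, 83.7 and 88.6 RPKM in A10 and 65.2, 65.9 and 62.3 in STZ-A10 (-0.38 ± 0.10, limma adjusted p = 0.168). Ndufs8, at 94.5, 84.5 and 99.7 RPKM in A10, stood at 80.0, 74.4 and 60.1 in STZ-A10 (-0.38 ± 0.12, limma adjusted p = 0.231), which also missed the threshold. The complex II subunit Sdhb was 82.5, 82.7 and 82.9 RPKM in A10 and 79.8, 65.1 and 61.1 in STZ-A10 (-0.27 ± 0.11, limma adjusted p = 0.384). Sdha was nearly level, at -0.06 ± 0.10.

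STZ-A10 against STZ, the effect of AOS in mice given STZ, pointed the same way, with the STZ-A10 libraries shared between the pairs. The median was -0.13, against 0.03 for all tested genes, and 73 of 81 were below 0 (58.7% of all genes were above). By complex the medians were -0.12, -0.09, -0.12, -0.15 and -0.18. Without adjustment 8 of 81 (9.88%) were lower and 0 higher at p under 0.05, against 1.65% and 1.28% of tested genes. 24 lay wholly below STZ, or 29.6%, against 4.71% of tested genes, and 0 wholly above (3.29%). Ndufb9, an accessory subunit of complex I, stood at 159, 173 and 170 RPKM in STZ and 120, 136 and 134 in STZ-A10 (-0.36 ± 0.16). Atp5g1 stood at 217, 180 and 169 RPKM in STZ and 143, 149 and 153 in STZ-A10 (-0.33 ± 0.13), and Cox7a2, the form of subunit 7A used outside muscle, at 114, 106 and 116 and at 84.6, 90.8 and 91.7 (-0.33 ± 0.15). None of these groups overlapped, and limma's adjusted p was 0.996 for each. The median of the 81 stayed between -0.18 and -0.08 when any single library was left out. The count of 8 ran from 2 without STZ-A10 replicate 3 to 17 without A10-FMT replicate 3. Here too the share of all tested genes in those repeats is not given. The exocrine pancreas sum was also higher in STZ-A10 than in the STZ libraries (6984, 3348 and 1563 RPKM), 20 of 20 proliferation markers were below 0 (median -0.29) and 12 of 12 platelet markers above 0 (0.60), and their part was not tested.

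The interaction sets these side by side by asking whether AOS acted otherwise with STZ than without it. It is computed from the same 4 groups. Its median was -0.22, against -0.02 for all tested genes, and 79 of 81 values were below 0 (46.2% of all genes were above). The exceptions belonged to complexes IV and V. All complexes had a median between -0.23 and -0.19. Before adjustment 5 (6.17%) were lower and 0 higher at p under 0.05, against 1.65% and 1.21% of tested genes, with Ndufs8 first (-0.53 ± 0.17), then Atp5g1 (-0.48 ± 0.18), Ndufs3 (-0.38 ± 0.14), Ndufa12 (-0.46 ± 0.18) and Cox7b (-0.37 ± 0.17). Limma called 0 after adjustment. The median ranged from -0.31 without Con replicate 1 to -0.12 without Con replicate 3.

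The subunits lay mostly above 0 with the transplant from AOS donors. In A10-FMT against STZ the median was 0.11, against -0.15 for all tested genes, and 64 of 81 were above 0 (27.7% of all genes were). At an unadjusted p under 0.05, 5 (6.17%) were higher and 0 lower, against 1.95% and 15.2% of tested genes. 6 lay wholly above STZ, or 7.41%, against 2.33%, and 0 wholly below (12.1%). Ndufb2, an accessory subunit of complex I, stood at 53.2, 54.7 and 54.4 RPKM in STZ and 64.4, 59.4 and 88.1 in A10-FMT (0.36 ± 0.14, limma adjusted p = 0.253). Atp5f1 and Atp5h, which build the peripheral stalk of the ATP synthase, had 0.27 ± 0.12 and 0.26 ± 0.12 (limma adjusted p = 0.275 and 0.290). Atp5b was 481, 517 and 490 RPKM in STZ and 510, 449 and 777 in A10-FMT, so the highest value came from replicate 3. Without that library the median was 0.04 and 0 of 81 reached an unadjusted p under 0.05 (share of all tested genes not given).

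In Con-FMT against STZ the subunits lay around 0. The median was -0.02, against 0 for all tested genes, with 35 of 81 above 0 (50.4% of all genes were). At an unadjusted p under 0.05, 0 of 81 passed with limma, against 2.66% of tested genes upwards and 2.58% downwards. 5 lay wholly below STZ (6.22% of tested genes) and 0 wholly above (6.94%). Ndufs1 had -0.20 ± 0.13, Atp5mpl, a small proteolipid of the ATP synthase, -0.16 and Atp5b -0.16. The levels of Ndufs1 were 41.1, 39.0 and 36.8 RPKM in STZ and 33.5, 32.0 and 35.6 in Con-FMT. All 12 platelet markers were above 0 in this pair (median 0.86), as were 9 of 9 T cell markers (0.56), and their part was not tested.

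A10-FMT against Con-FMT compares the donors and shares its A10-FMT libraries with the comparison to STZ. The median was 0.13, against -0.17 for all tested genes, and 62 of 81 were above 0 (29.0% of all genes were). Before adjustment 8 were higher and 1 lower at p under 0.05, against 3.49% and 20.1% of tested genes. 9 lay wholly above Con-FMT (11.1%, against 5.35% of tested genes) and 2 wholly below (2.47%, against 23.9%). Ndufs1, Cox7b and Atp5j, a coupling factor of the peripheral stalk, had 0.32 ± 0.13, 0.30 ± 0.12 and 0.29 ± 0.11 (limma adjusted p = 0.204 for each). Without A10-FMT replicate 3 the median was 0.06 and 1 of 81 reached an unadjusted p under 0.05 (share of all tested genes not given). Without A10-FMT replicate 2, 8 passed the adjusted threshold upwards and 1 downwards, in a fit that called 20.4% of tested genes.

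Cox7a2l moved the other way. It encodes a relative of the subunit 7A family that links complexes III and IV into supercomplexes. It stood at 100, 120 and 103 RPKM in A10-FMT and at 171, 144 and 139 in Con-FMT, with no overlap (-0.49 ± 0.17, limma adjusted p = 0.204). In the other groups it was 119, 123 and 161 (Con), 147, 135 and 183 (A10), 147, 114 and 97.9 (STZ) and 168, 126 and 143 (STZ-A10). Its high libraries were not those of most other subunits. Con replicate 3, with the lowest value of 42 of the 81, was the highest Con library here, as it was for Sdha, Sdhb, Ndufa10 and Cox6a2. Ndufs4, a complex I subunit that is mutated in a known mitochondrial encephalopathy, was 19.1, 22.7 and 20.9 RPKM in A10-FMT and 23.1, 23.9 and 24.1 in Con-FMT (-0.18 ± 0.12, limma adjusted p = 0.319).

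These medians depend on how the libraries are scaled. The median log2 fold change of all tested genes was -0.15 for A10-FMT against STZ and -0.17 against Con-FMT. With each library centred on its own median, the subunits' median became 0.28 for A10-FMT against STZ and 0.30 for A10-FMT against Con-FMT. For the STZ-A10 comparisons the medians stayed below 0 under every scaling run. The markers of red cell precursors moved beside the A10-FMT values, with 13 of 14 above 0 against STZ and 14 of 14 against Con-FMT and medians of 0.67 and 0.79. Their summed level was 2902 to 6636 RPKM in A10-FMT, 1787 to 4033 in STZ and 2283 to 2711 in Con-FMT. In STZ-A10 against STZ 12 of 14 were below 0 (median -0.32), and in STZ-A10 against A10, where the subunits were also lower, 14 of 14 were above 0 (0.36). Other markers stood beside the A10-FMT values too. Liver markers were above 0 for 15 of 15 in both pairs (medians 2.66 and 2.09) and wholly above STZ for 15, and their sum was 126 to 440 RPKM in A10-FMT, 12.1 to 15.3 in STZ and 17.2 to 59.3 in Con-FMT. Proliferation markers were above 0 for 20 of 20 in both (0.41 and 0.51). T cell markers were below 0 for 9 of 9 in both (-0.46 and -0.96), all 9 at an unadjusted limma p under 0.05 against Con-FMT, and red pulp macrophage markers for 12 of 12 against STZ (-0.49) and 11 of 12 against Con-FMT (-0.18). The part of these cells in the subunits' values was not tested.

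The c subunit genes give a measure within a library, where scaling cancels. Atp5g2 held 48.3% ± 4.2 (SD over 18 libraries) of their summed RPKM, Atp5g1 25.8% ± 2.9 and Atp5g3 25.9% ± 2.0. The share of Atp5g1 was 24.9%, 25.4% and 25.4% in Con and 23.7%, 24.3% and 24.3% in A10. It was 28.2%, 27.4% and 27.97% in STZ and 20.2%, 24.4% and 24.6% in STZ-A10. In A10-FMT it was 28.8%, 25.2% and 34.5% and in Con-FMT 25.3%, 25.1% and 24.8%. STZ thus lay above Con, STZ-A10 and Con-FMT with no overlap, and A10-FMT spread from 25.2% to 34.5%. These shares are given as a description and were not tested. As the 3 genes encode an identical stretch of 75 residues, the shares say which gene the message came from.

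**Figure D5:**
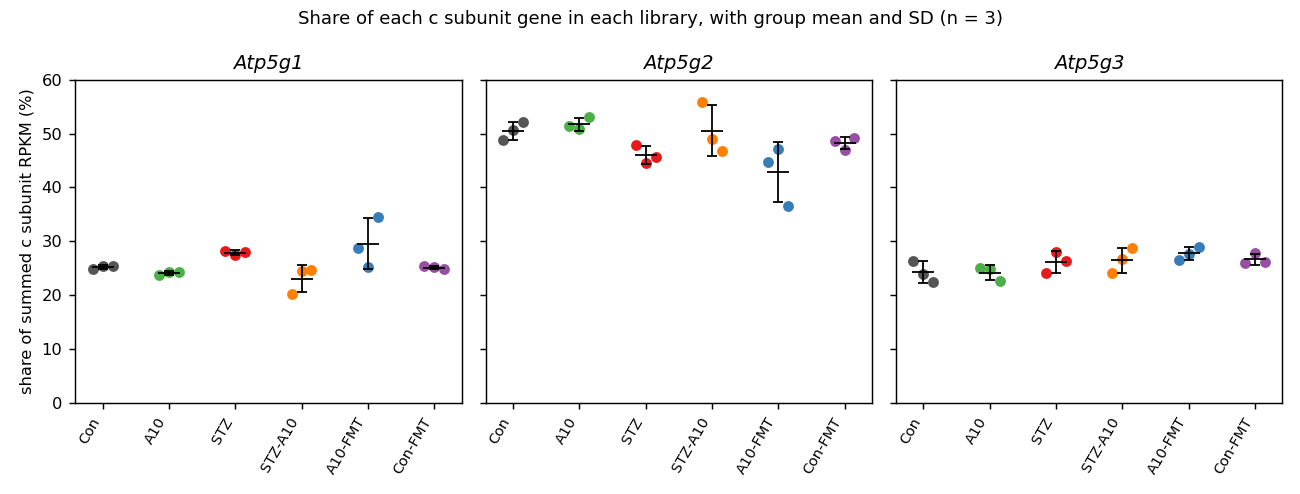
Share (%) of Atp5g1, Atp5g2 and Atp5g3 in their summed RPKM in each library (points), with the group mean and SD (n = 3), on an axis from 0. The STZ libraries hold 27.4% to 28.2% Atp5g1, and A10-FMT replicate 3 holds the highest Atp5g1 share (34.5%) and the lowest Atp5g2 share (36.5%).

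Copies of other members limit a few values. Ndufb4c, annotated as a processed pseudogene, shares 390 bases in an unbroken run with Ndufb4, so its reads cannot be told from those of Ndufb4, and its 11.3% share of their sum is uncertain. Ndufa4 and Ndufa4l2 share a run of 28 bases at most. The 81 genes lie on 19 chromosomes with at most 6 on any of them and 3 on the X chromosome, and 80 are annotated as protein coding.

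The rest of the pathway was taken from lists of names. None of the genes on them passed the adjusted limma threshold in any pair, in the interaction or in the F test. They comprise 19 assembly factors of complex I, 4 of complex II, 5 of complex III, 24 of complex IV and 5 of the ATP synthase, 13 genes of coenzyme Q synthesis, 18 of the tricarboxylic acid cycle, 16 regulators of mitochondrial biogenesis and 17 subunits and carriers with other names. The 78 mitochondrial ribosomal proteins, which make the subunits encoded in the organelle, were not called either. Their medians lay near those of the subunits: -0.12 for STZ-A10 against A10 and against STZ, 0.10 for A10-FMT against STZ and -0.20 for the interaction, where 75 of 78 were below 0. The assembly factors of complex I had medians of -0.10, -0.06, 0.03 and -0.13 in those contrasts and the tricarboxylic acid cycle genes -0.08, -0.11, -0.02 and -0.15. All tested genes had -0.03, 0.03, -0.15 and -0.02. The biogenesis regulators had -0.07, -0.02, -0.14 and -0.08, so in A10-FMT against STZ their median lay near that of all tested genes, below that of the subunits. Of these regulators, Tfam, which packs and transcribes mitochondrial DNA, stood at 23.6 to 33.2 RPKM over all libraries and Ppargc1a, the coactivator of brown fat and muscle, at 0.02 to 0.33.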

How the data were processed

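Spleen RNA was selected with oligo(dT) and sequenced on an Illumina HiSeq instrument. The authors deposited RPKM per gene and library; the paper's methods name SOAPaligner, the submitters' processing notes name Bowtie 0.12.2 and mm10, and the annotation is not given in the sources used here. The RPKM table holds no read counts, so depth is unknown and no counting interval was given. Every column was assigned to a sample by its label (0 left over), and 6 lines with 3 repeated names were left out.

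Genes at 1 RPKM or more in at least 3 libraries (12905, all 81 subunits among them) were tested on log2(RPKM + 1) with limma 3.58.1 (trend) in R 4.3.3, all 18 libraries in a single fit of 6 group means. Fold changes are on that scale and understate the change of low genes. P-values are two-sided and adjusted by Benjamini-Hochberg over all tested genes, with a threshold of 0.05. On data simulated for STZ against Con (12905 genes, 200 changed by 2 log2 units), 194 were recovered with 7 false calls. That change is larger than any measured for a subunit, and the noise was drawn for each gene on its own. The simulation thus does not show how often changes of the subunits' size would be found. The members and lists were chosen with earlier results of these data known. Named are subunits past the threshold, the 3 largest changes without overlap in each direction and comparison, the highest and lowest of each complex, core subunits (a few named genes are not reported here), isoforms of restricted tissues and the 5 smallest p in the F test. Ndufa12 and the genes given beside the members were named after their values were seen. Sequences and positions came from GENCODE M21 and RefSeq (GRCm38), matched by symbol for all 81. Alternatives covered scaling, filter, pseudocount, weights, threshold, a replicate block and leaving out libraries.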

Additional observations from a re-analysis of the deposited data

How the results depend on the processing

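The median log2 fold changes of the 81 subunits moved by less than the spread between libraries (0.10 log2 units) in 221 of 224 repeats. That limit exceeds the size of the medians of STZ against Con (0.09), A10 against Con (0.09) and Con-FMT against STZ (-0.02). A median could therefore change its sign and count as unmoved, as STZ against Con did without Con replicate 3 (-0.01). Of 742 repeated values for 24 named fold changes, 0 turned sign. Centring each library on its median moved the medians to 0.30 for A10-FMT against Con-FMT and 0.28 for A10-FMT against STZ. Leaving out single libraries gave medians of -0.030 to 0.16 for A10 against Con, lowest without Con replicate 3.

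The count of subunits past the F test's threshold was 1 as reported and 0 with a replicate block, with no filter, with a pseudocount of 0.1, with 1 RPKM required in every library (which drops Cox6a2), at the study's limits (adjusted p of at most 0.001 and a log2 fold change of at least 1), and without both Con replicate 2 and A10-FMT replicate 3, a pair chosen after seeing the data. It ran from 0 to 3 over single libraries left out, with 3 (Atp5o, Ndufb9 and Cox6a2) without A10-FMT replicate 2. In the pairs, the count over such repeats ran from 0 to 9 for A10-FMT against Con-FMT (9 without A10-FMT replicate 2) and from 0 to 1 for STZ against Con and STZ-A10 against A10 (Cox6a2, without A10-FMT replicate 3). It was 1 for STZ-A10 against A10 with quantile normalization and without the pair of libraries. The shares of all tested genes called in these repeats are not listed here, so the counts do not set the subunits apart.

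Weighting the libraries changed the counts most. Array weights by REML, which did not converge and spread very widely, called 47 subunits in STZ against Con, 23 in A10 against Con, 34 in STZ-A10 against A10, 26 in STZ-A10 against STZ, 52 in A10-FMT against STZ, 20 in Con-FMT against STZ, 47 in A10-FMT against Con-FMT, 20 in the interaction and 81 in the F test. Weights estimated gene by gene, added after seeing the data, called 15, 1, 18, 0, 9, 7, 22, 0 and 59 in the same order. The share of all tested genes called in these fits is not given here, so the counts do not set the subunits apart. The weights rest on 3 libraries a group, and these calls were not used.

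Whether the replicate numbers pair the libraries was not settled. Over 45 same-numbered pairs the correlation of deviations ran from -0.39 to 0.57 with a median of 0.04, and 14 exceeded 0.1. Over 90 pairs of different number it ran from -0.58 to 0.51 with a median of -0.01, and 23 exceeded 0.1. Of 18 libraries, 9 correlated best with their own number. With the replicate block the count was 0 in the F test and 0 in every pair. No read counts were at hand, so values near 1 RPKM, such as those of Cox6a2 and Cox4i2, rest on few reads of unknown number.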

Other observations

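Testis isoforms below the level chosen for the report stood out in the control group. Cox8c, the testis form of subunit 8, stood at 0.83, 3.56 and 0.22 RPKM in Con, at 0.21 RPKM in STZ-A10 replicate 3 and at a listed 0 in the other 14 libraries. Cox7b2, the testis form of subunit 7B, stood at 3.12 RPKM in Con replicate 2, at 0.18 in Con replicate 3, at 0.17 in STZ replicate 2 and at a listed 0 elsewhere. Prm1 and Tnp1, which pack the DNA of sperm, stood at 85.6 and 39.5 RPKM in Con replicate 2, against 11.3 and 5.44 in Con replicate 1 and 6.56 and 3.47 in Con replicate 3. Among the 81 subunits, Con replicate 2 held neither a highest nor a lowest value, and the median log2(RPKM + 1) there was 6.68.

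Cox7a1, the muscle form of subunit 7A, which lay just under the level chosen, stood at 0.96, 1.90 and 0.35 RPKM in Con and 0.33, 0.95 and 0.96 in STZ, so the groups overlapped. Its share of the summed Cox7a1 and Cox7a2 RPKM was 1.04% ± 0.79 (SD, n = 3) in Con and 0.664% ± 0.327 in STZ. Values of this size rest on few reads.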
